A study of Mus musculus with 20 samples.

Results

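The genes of the transcription factor NF-kB and of proteins that restrain or adjust it were followed in whole mouse tracheas. The subunit genes were Nfkb1, Nfkb2, Rel, Rela and Relb, and the genes listed as inhibitors were Nfkbia, Nfkbib, Nfkbie, Nfkbiz and Tnfaip3. Nfkbiz is listed with them although its product adjusts which targets are transcribed. All non-control probes of the array whose gene name equals one of these were taken, which gave 14 of 41174 probes and 10 of 27962 gene names. Tracheas of C57/Bl6 wild-type mice and of Myd88 knockout (Myd88KO) mice, all labelled as 4 months old, were compared without injury (control) and 3 days after 2% polidocanol (injury), a detergent that strips the tracheal epithelium. Each of the 4 groups held 5 tracheas, and each sample was hybridized to 1 array. The knockout affects the whole body, and according to the study's methods the knockout mice were bred as a colony apart from the wild-type mice, so that colony and genotype cannot be told apart. Mice of both sexes and of several litters were used, and no sham treatment of the controls is named in the labels. Differences are given ± SE and group means ± SD, with n = 5 arrays in each group.

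NF-kB proteins are dimers of 5 related subunits that bind DNA through a shared Rel homology domain. Rela, Relb and Rel carry a transactivation domain, whereas Nfkb1 and Nfkb2 encode precursors that are shortened to the DNA-binding proteins p50 and p52. In a resting cell the inhibitors of the IkB family, encoded by Nfkbia, Nfkbib and Nfkbie, hold dimers in the cytoplasm until IkB kinases mark them for degradation. Myd88 is the adaptor through which most Toll-like receptors and the receptors of the interleukin-1 family reach these kinases. Several of the genes are themselves targets of NF-kB, so that Nfkbia and Tnfaip3, a ubiquitin-editing enzyme, form negative feedback loops, whereas the nuclear protein encoded by Nfkbiz adjusts which targets are transcribed.

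Promoter sequences of 4 of the 6 members that the results turn on are shown, so that the NF-kB consensus motifs near their start sites can be seen. Promoter windows from RefSeq (GRCm38.p6), reaching from 250 bases before to 50 bases after each annotated start, were at hand for 7 of the 10 genes, with 10 windows in all. Both strands were searched for the NF-kB consensus of 10 letters, and matches are in capitals; overlapping matches run together. A match was held by 8.46% of all 32851 windows and 9.55% of all 27025 genes given there. Here it was held by 7 of the 10 windows and 5 of the 7 genes, namely Nfkb2, Rel, Nfkbia, Nfkbie and Tnfaip3. Nfkb2 had 3 windows, each with a match, and not all of them are printed. Windows of a gene can overlap and are not separate counts. The Nfkbie window, chr17:45555450-45555749 on the plus strand, held 1 match at positions -106 to -97 relative to the start. The Nfkb2 window at chr19:46305445-46305744, plus strand, held 2, and the second of these lies also in the overlapping window of a neighbouring start. The Nfkbia window at chr12:55492598-55492897, minus strand, held 1, and the Tnfaip3 window at chr10:19015361-19015660, minus strand, held 3 at 2 places. Each is printed 5′ to 3′ in the direction of its gene.
Nfkbie: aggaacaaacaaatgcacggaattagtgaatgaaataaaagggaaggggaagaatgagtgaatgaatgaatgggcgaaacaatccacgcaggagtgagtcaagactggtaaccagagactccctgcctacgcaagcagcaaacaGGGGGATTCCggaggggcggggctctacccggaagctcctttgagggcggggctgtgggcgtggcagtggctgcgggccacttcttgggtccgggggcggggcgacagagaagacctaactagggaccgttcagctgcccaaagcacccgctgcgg
Nfkb2: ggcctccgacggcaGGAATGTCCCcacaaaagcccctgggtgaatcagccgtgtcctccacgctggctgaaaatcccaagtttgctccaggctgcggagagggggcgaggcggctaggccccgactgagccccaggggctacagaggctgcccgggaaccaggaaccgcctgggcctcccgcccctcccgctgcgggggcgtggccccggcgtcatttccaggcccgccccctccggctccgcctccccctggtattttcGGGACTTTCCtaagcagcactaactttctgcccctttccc
Nfkbia: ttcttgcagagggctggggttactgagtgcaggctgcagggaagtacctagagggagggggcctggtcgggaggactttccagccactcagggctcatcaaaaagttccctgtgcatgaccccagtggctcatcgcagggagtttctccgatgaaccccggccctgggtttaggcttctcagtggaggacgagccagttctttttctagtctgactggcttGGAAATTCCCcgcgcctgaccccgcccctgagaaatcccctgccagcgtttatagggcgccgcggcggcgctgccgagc
Tnfaip3: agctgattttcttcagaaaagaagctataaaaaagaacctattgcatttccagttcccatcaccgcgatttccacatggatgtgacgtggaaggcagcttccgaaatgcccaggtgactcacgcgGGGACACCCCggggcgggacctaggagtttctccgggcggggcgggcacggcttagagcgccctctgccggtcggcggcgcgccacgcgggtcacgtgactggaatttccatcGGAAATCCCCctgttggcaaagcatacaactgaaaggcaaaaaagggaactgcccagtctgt
The Rela and Nfkbib windows and the other Tnfaip3 window held no match, which says only that these letters were not in those windows. Windows for Nfkb1, Relb and Nfkbiz were not in the table. A match describes the sequence and does not show that a factor was bound.

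Signals are given on the log2 scale relative to the 75th percentile of the same array, so that 0 equals that percentile and a difference of 1 is a doubling, and levels were compared only within a probe. Of the 14 probes 13 were well above background on 20 of 20 arrays and were tested, whereas the Rel probe was well above background on 1 array. Between 57.5% and 67.8% of spots per array were well above background. The Myd88 probe still gave signal in the knockout, with a range of 1.54 to 2.09 in injured Myd88KO tracheas against 2.36 to 2.80 in injured wild-type tracheas (difference -0.77 ± 0.14 (SE), limma adjusted p = 0.0082) and a difference of -0.21 ± 0.14 between the uninjured groups (adjusted p = 1.00). Whether this probe lies in the deleted part was not analysed here. Every slide carried one array per group, and slides 2, 3 and 4 were scanned on one day and slides 1 and 5 on another. Injured Myd88KO replicate 5 stood apart. Its median correlation was 0.945 with its own group and 0.976 with the uninjured Myd88KO arrays (replicate 1, the only other injured Myd88KO array closer to the uninjured ones, had 0.949 and 0.958), and the mean level of 6 proliferation genes was -1.20 on it, against 1.04 to 1.91 on the other injured Myd88KO arrays. Replicates 1 and 5 were also the injured Myd88KO arrays of the second scan day. Within that group, scan day and these arrays cannot be told apart. Values without replicate 5 are therefore also given for part of the results.

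No member passed the test in any of the 5 comparisons. After injury of wild-type tracheas 0 of 13 member probes reached an adjusted p under 0.01 (limma, Benjamini-Hochberg over 26063 probes), beside 5.26% of all tested probes. The corresponding counts were 0 of 13 for injury of Myd88KO tracheas, beside 0.376% of all probes, 0 of 13 for uninjured Myd88KO against wild-type, beside 0.384%, and 0 of 13 for injured Myd88KO against wild-type, beside 0.380%. The difference between the 2 injury responses gave 0 of 13 members and 0% of all probes. Without injured Myd88KO replicate 5 the background of the Myd88KO injury comparison was 4.12%, that of the injured genotypes 0.326% and that of the difference between responses 0.0115%, and the members called were again 0 of 13 in each. The one-way test across the 4 groups named in the study's methods also called 0 of 13 at 0.01, before and after adjustment, beside 14.8% and 4.39% of all probes.

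At an unadjusted p under 0.05 the members gave 2 of 13 probes for injury in wild-type, beside 26.4% of all probes, and 3 of 13 for injury in Myd88KO, beside 19.5%. They gave 1 of 13 for uninjured Myd88KO against wild-type, beside 5.59%, 3 of 13 for injured Myd88KO against wild-type, beside 12.5%, and 2 of 13 for the difference between responses, beside 10.4%. These 11 of 65 differences belonged to 6 genes: Nfkb2, Relb, Nfkbia, Nfkbie, Nfkbiz and Tnfaip3. Without injured Myd88KO replicate 5 the unadjusted limma p of some rose above 0.05. It was 0.070 for Nfkbie between the injured genotypes, 0.084 for Nfkbie between the responses, and 0.051 for Tnfaip3 after Myd88KO injury. In the injured genotypes 12 of the 13 member probes were lower in Myd88KO, with a median difference of -0.20 where the median of all probes was -0.034. Within the first scan day (slides 2, 3 and 4) 8 of the 13 were lower, with a median of -0.017, and within the second (slides 1 and 5) 12 were, with a median of -0.92. The second day holds injured Myd88KO replicates 1 and 5, the arrays closer to the uninjured ones. Probes of 1 gene and genes of 1 array are not independent, and no test was made of these counts. No member probe of 13 had groups without overlap between the uninjured genotypes, beside 2.51% of all probes, and 0 of 13 between the injured genotypes, beside 1.96%. After injury the median member difference was 0.10 in wild-type and 0.09 in Myd88KO tracheas, which was 0.0023 and 0.18 within the first scan day and 0.29 and -0.15 within the second.

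**Figure D1:**
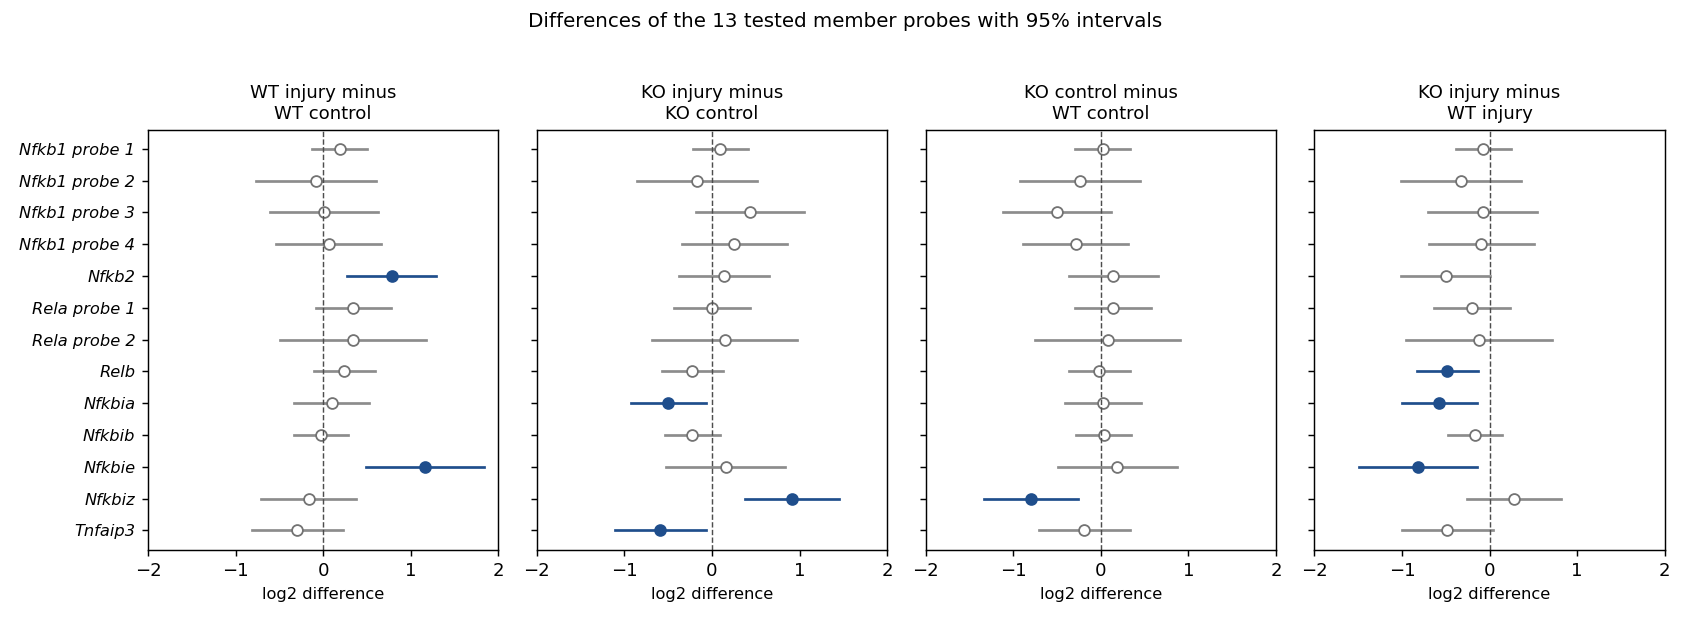
Log2 differences of the 13 tested member probes (points) with 95% intervals from limma (lines) in 4 comparisons of 5 arrays against 5; filled points have an unadjusted p under 0.05. The filled points are Nfkb2 and Nfkbie for wild-type injury, Nfkbia, Nfkbiz and Tnfaip3 for Myd88KO injury, Nfkbiz for the uninjured genotypes, and Relb, Nfkbia and Nfkbie for the injured genotypes. Without injured Myd88KO replicate 5 the unadjusted p was above 0.05 for Tnfaip3 after Myd88KO injury and for Nfkbie between the injured genotypes.

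Among the subunits, Nfkb2, which encodes the precursor of p52 and belongs to the non-canonical branch of the pathway, had the widest separation after injury. Its probe, at chr19:46208290-46208429 in the files' coordinates, whose genome build is not stated, read 0.58, 0.43, 0.68, 0.84 and 0.79 in uninjured wild-type replicates 1 to 5. In injured wild-type tracheas it read 1.52, 1.76, 0.99, 1.57 and 1.40. All injured wild-type values thus lay above all uninjured ones. The difference was 0.78 ± 0.24 (95% interval 0.27 to 1.29; limma adjusted p = 0.040), a 1.72-fold higher signal that passes a threshold of 0.05 and not that of 0.01. Groups that do not overlap were found for 2 of 13 member probes in this comparison, beside 12.6% of all probes. In Myd88KO tracheas the Nfkb2 signal was 0.37, 1.09, 1.07, 0.85 and 0.66 before injury. After injury it was 0.14, 1.63, 0.75, 1.60 and 0.59, so that replicates 2 and 4 were as high as injured wild-type tracheas and replicates 1, 3 and 5 were not. The Myd88KO injury difference was 0.14 ± 0.24 (adjusted p = 0.80), or 0.23 ± 0.26 without replicate 5. The test of the difference between the 2 responses gave -0.65 ± 0.35 (limma adjusted p = 0.52; 95% interval -1.37 to 0.08), so a different Nfkb2 response in the genotypes was not shown.

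Relb, the partner of p52, was highest in injured wild-type tracheas, at 2.07, 1.85, 1.36, 1.61 and 2.10. It was lowest in injured Myd88KO tracheas, at 1.13, 1.68, 0.93, 1.63 and 1.21. Replicates 2 and 4 of the injured Myd88KO group, the same as for Nfkb2, lay within the injured wild-type range. The difference of -0.49 ± 0.17 (95% interval -0.83 to -0.14; limma adjusted p = 0.22) did not pass after adjustment, and without replicate 5 it was -0.46 ± 0.18 (adjusted p = 0.39). It was -0.19 within the first scan day and -0.92 within the second. Between the uninjured groups, which had means of 1.56 ± 0.16 in wild-type and 1.54 ± 0.11 in Myd88KO tracheas (SD, n = 5 each), the interval of the difference was -0.37 to 0.33. The injury difference of Relb was 0.24 ± 0.17 in wild-type and -0.23 ± 0.17 in Myd88KO tracheas (limma adjusted p = 0.38 and 0.49).

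Rela encodes p65, the main transactivating subunit of canonical dimers, and was measured by a pair of probes. The brighter, Rela probe 1, had a mean of 2.49 ± 0.22 in uninjured and 2.84 ± 0.30 in injured wild-type tracheas, and of 2.63 ± 0.37 in uninjured and 2.63 ± 0.38 in injured Myd88KO tracheas (SD, n = 5 each). The wild-type injury difference of 0.35 had a 95% interval of -0.09 to 0.78, and that of Myd88KO tracheas an interval of -0.43 to 0.43. Rela probe 1 was lower in injured Myd88KO than in injured wild-type tracheas on 5 of 5 slides, by differences of -0.51 to -0.06, and Rela probe 2 on 3 of 5. The fitted difference of Rela probe 1 was -0.20 ± 0.21 (limma unadjusted p = 0.34). Here and below, no share of all probes with the same sign on 5 of 5 slides is given, so that such slide counts are a description. No call was made for either Rela probe in any comparison.
Nfkb1, which encodes the precursor of p50, was measured by 4 probes. The first, spotted 10 times, lay at chr3:135379090-135379151 and had a mean between 0.54 and 0.73 in the 4 groups, with intervals of -0.12 to 0.50 for wild-type injury and -0.22 to 0.41 for Myd88KO injury. The other three, assigned on the array to other cDNA records of the gene and placed between chr3:135405555 and chr3:135412634, varied more between arrays of a group, with SDs of up to 0.79 (probe 2, injured wild-type). Whether these probes lie in exons or introns was not determined. Nfkb1 probe 3 was lower in uninjured Myd88KO than in uninjured wild-type tracheas on 5 of 5 slides, by differences of -1.05 to -0.11. Its fitted difference was -0.50 ± 0.30 (limma unadjusted p = 0.11). Over the 7 probes of Nfkb1, Rela and Nfkbib the 35 differences ranged from -0.50 to 0.43, and none had an unadjusted p under 0.05.

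Rel, the gene of c-Rel, could not be compared. Its probe was well above background on uninjured wild-type replicate 2, at -2.70, and not well above background on the other 19 arrays, where it read -7.56 to -5.73. No difference is given for it, because both groups of each comparison are below background on most or all arrays.

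**Figure D2:**
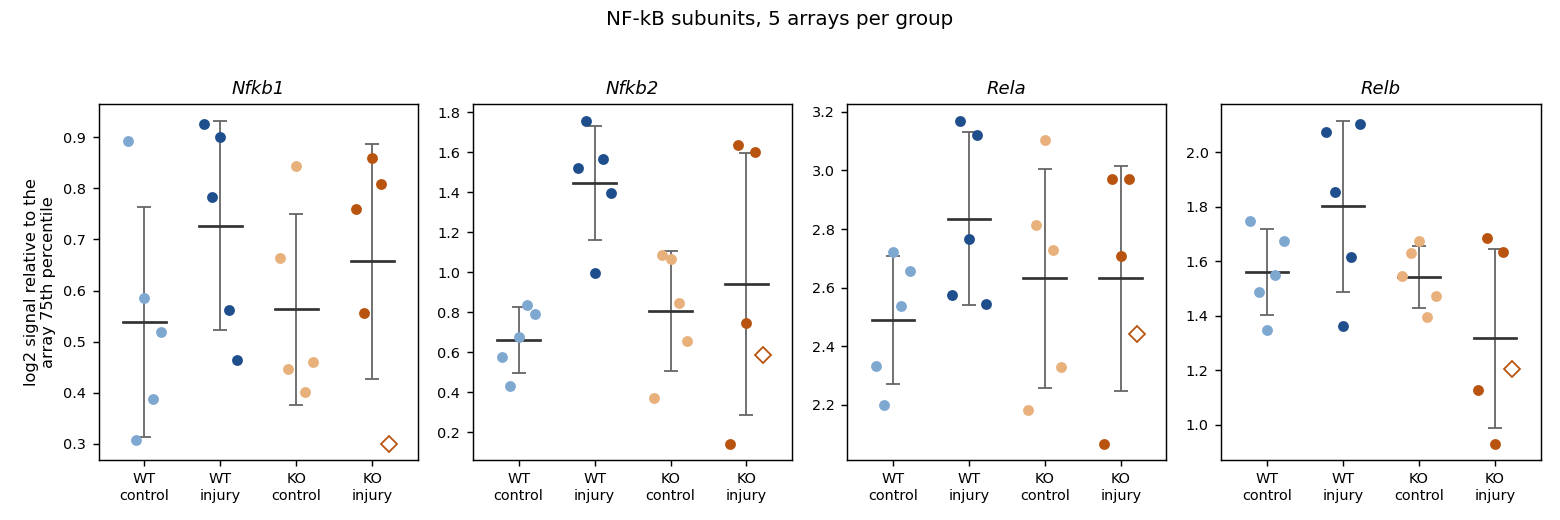
Log2 signal relative to the array's 75th percentile for 4 NF-kB subunit genes (probe 1 of Nfkb1 and of Rela) in the 4 groups; points are single arrays, lines are means and bars are SDs (n = 5), and the open diamond is injured Myd88KO replicate 5. For Nfkb2 all 5 injured wild-type arrays lie above all 5 uninjured wild-type arrays, and the injured Myd88KO arrays spread from 0.14 to 1.63.

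Nfkbie, which encodes IkB-epsilon, an inhibitor that is itself induced by NF-kB, had the largest wild-type injury difference of the members. It read -0.013, -0.98, -0.79, -0.44 and -0.28 in uninjured wild-type replicates 1 to 5. In injured wild-type tracheas it read 1.30, 0.35, 0.091, 0.12 and 1.45. The groups did not overlap, and replicates 1 and 5, both from the second scan day, were the highest after injury. The difference was 1.16 ± 0.32 (95% interval 0.49 to 1.84; limma adjusted p = 0.023), a 2.24-fold higher signal that passes 0.05 and not 0.01; 12.7% of all probes pass 0.05 in this comparison, and 2 of 13 members, Nfkbie and Nfkb2. Within the first scan day the difference was 0.92 and within the second 1.52. In Myd88KO tracheas Nfkbie read -0.22, -0.22, -0.17, -0.40 and -0.54 before injury. After injury it read -0.34, 0.43, -0.72, 0.80 and -0.94, with replicates 2 and 4 again the highest. The Myd88KO injury difference was 0.16 ± 0.32 (adjusted p = 0.84), and 0.35 ± 0.32 without replicate 5. After injury the Nfkbie difference, Myd88KO minus wild-type, was -0.82 ± 0.32 (limma adjusted p = 0.29), and -0.62 ± 0.32 without injured Myd88KO replicate 5 (adjusted p = 0.52). Over all arrays it was -0.017 on the first scan day and -2.02 on the second, whose injured Myd88KO arrays were replicates 1 and 5. The test of the difference between responses gave -1.01 ± 0.46 (limma adjusted p = 0.47), and -0.81 ± 0.44 without replicate 5.

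Markers of myeloid cells are given beside these values. Of 14 myeloid genes 9 were called higher after injury in wild-type tracheas and 0 in Myd88KO tracheas, or 4 without replicate 5 (10 in wild-type in that fit). Of all probes 5.26% were called in either direction for wild-type injury and 0.376% for Myd88KO injury. Without replicate 5 the share for Myd88KO injury was 4.12%, so that the gene counts of the genotypes stand on unlike backgrounds. The mean log2 level of the 14 genes was 0.20 to 1.27 in uninjured and 2.27 to 3.77 in injured wild-type arrays. In injured Myd88KO replicates 1 to 5 it was 0.72, 2.67, 0.48, 2.85 and -0.40, so that replicates 2 and 4 were the highest, as they were for Nfkb2, Nfkbie and Relb. This order was not particular to myeloid genes. Replicates 2 and 4 were also the highest for proliferation genes (1.83 and 1.91), endothelial genes (0.82 and 0.75) and basal cell genes (5.81 and 5.47). They were the lowest for secretory genes (6.63 and 6.43). The part of myeloid cells in the Nfkb2 and Nfkbie values was not tested, and in RNA of whole tracheas a change in the number of cells of a type and a change of RNA per cell cannot be told apart.

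Nfkbia encodes IkB-alpha, which is resynthesized quickly after its degradation. In uninjured wild-type tracheas it read 4.89, 4.49, 4.84, 4.50 and 4.91. In injured wild-type tracheas it read 4.93, 4.69, 4.41, 4.49 and 5.60. The ranges overlapped, and the difference was 0.10 ± 0.21 (95% interval -0.33 to 0.53). In Myd88KO tracheas it read 4.56, 4.87, 4.94, 4.45 and 4.91 before injury. After injury it read 4.35, 4.42, 3.70, 4.42 and 4.36, and all 5 values lay below all uninjured ones. This was the only member probe of 13 without overlap in that comparison, beside 3.45% of all probes. The difference was -0.50 ± 0.21 (95% interval -0.93 to -0.07; limma adjusted p = 0.19), or -0.53 ± 0.22 without replicate 5 (adjusted p = 0.13). Between the injured genotypes the Nfkbia difference was -0.57 ± 0.21 (limma adjusted p = 0.24), lower in Myd88KO on 5 of 5 slides, where it ranged from -1.24 to -0.07. Without injured wild-type replicate 5, the highest array, it was -0.38. It was -0.35 within the first scan day and -0.91 within the second.

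Tnfaip3, which encodes A20, an enzyme that edits ubiquitin chains upstream of the IkB kinases, was lowest in injured Myd88KO tracheas. Its mean was 0.39 ± 0.45 in uninjured and 0.09 ± 0.49 in injured wild-type tracheas, and 0.20 ± 0.16 in uninjured and -0.39 ± 0.42 in injured Myd88KO tracheas (SD, n = 5 each). In Myd88KO tracheas it read -0.088, 0.22, 0.32, 0.28 and 0.26 before injury and -0.68, -0.11, -0.84, 0.17 and -0.51 after, lower on 5 of 5 slides. That difference was -0.59 ± 0.25 (limma adjusted p = 0.20), and -0.56 ± 0.27 without replicate 5. The wild-type injury difference was -0.30 ± 0.25 (95% interval -0.81 to 0.22), and the test of the difference between responses gave -0.29 ± 0.35 (limma adjusted p = 0.78), which does not tell them apart.

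Nfkbiz, which encodes IkB-zeta, a nuclear member of the family that is needed for transcription of part of the targets, had another pattern. In uninjured wild-type tracheas it read 0.057, 0.41, 0.99, 0.22 and 0.64. In uninjured Myd88KO tracheas it read -0.14, -0.71, -0.80, 0.25 and -0.27. The uninjured Myd88KO group was the lowest of the 4, and its range overlapped with that of wild-type tracheas through replicate 4. The difference of -0.80 ± 0.26 (95% interval -1.34 to -0.26; limma adjusted p = 0.36) did not pass after adjustment. After injury Nfkbiz read 0.13, 0.61, 0.48, -0.25 and 0.52 in wild-type tracheas. It read 0.64, 0.27, 1.44, 0.36 and 0.17 in Myd88KO tracheas, higher than before injury on 5 of 5 slides. The Myd88KO injury difference was 0.91 ± 0.26 (95% interval 0.37 to 1.45; limma adjusted p = 0.058), and 1.01 ± 0.27 without replicate 5 (adjusted p = 0.021), where 12.4% of all probes pass 0.05. In wild-type tracheas the injury difference was -0.17 ± 0.26. The difference between the responses, 1.08 ± 0.36 (95% interval 0.31 to 1.84), was above 0 on 5 of 5 slides, from 0.56 to 2.75, and had a limma adjusted p of 0.39.

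Nfkbib, which encodes IkB-beta, an inhibitor that is resynthesized more slowly than IkB-alpha, had means of 1.67 ± 0.16 before and 1.65 ± 0.17 after injury in wild-type tracheas. In Myd88KO tracheas its means were 1.70 ± 0.20 before and 1.48 ± 0.29 after injury. Its injury differences had 95% intervals of -0.33 to 0.29 in wild-type and -0.53 to 0.09 in Myd88KO tracheas, where it was lower after injury on 5 of 5 slides, by differences of -0.58 to -0.0066.

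**Figure D3:**
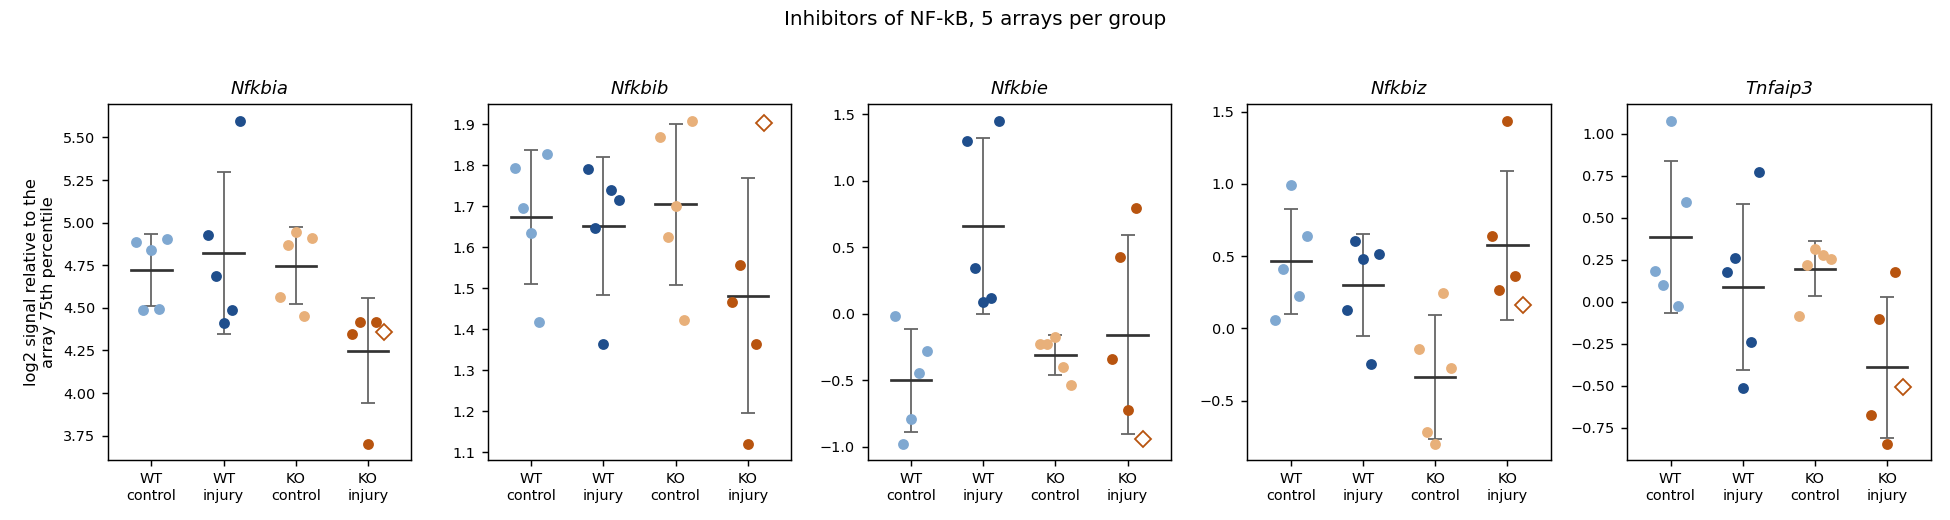
Log2 signal relative to the array's 75th percentile in the 4 groups for the 5 genes listed as inhibitors, Nfkbiz among them. Points are single arrays, lines are means and bars are SDs (n = 5), and the open diamond is injured Myd88KO replicate 5. Nfkbie separates the wild-type groups, Nfkbia separates the Myd88KO groups, and Nfkbiz is lowest in uninjured Myd88KO tracheas.

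Within slides, which hold 1 array of each group, injury minus control for Nfkb2 in wild-type tracheas ranged from 0.32 to 1.33 and was above 0 on 5 of 5 slides. In Myd88KO tracheas it ranged from -0.32 to 0.76 and was above 0 on 2 of 5. The Nfkbie differences were 0.56 to 1.73 in wild-type tracheas, above 0 on 5 of 5 slides, and -0.55 to 1.19 in Myd88KO tracheas, above 0 on 2 of 5. Both genes thus had 2 slides on which the differences of the genotypes had the same sign and 3 on which they had not. Nfkbia was lower after injury in Myd88KO tracheas on 5 of 5 slides and in wild-type tracheas on 2 of 5. With the slide as a block the adjusted p for wild-type injury was 0.024 for Nfkb2 and 0.028 for Nfkbie, and with the scan day as a block 0.019 and 0.018 (limma). For Nfkbiz after Myd88KO injury it was 0.053 with the slide and 0.039 with the scan day as a block. Over all alternatives of processing and test, the adjusted p of this Nfkbiz difference (limma or the methods' test) was below 0.05 in 2 of 13 and reached 0.22. With each array left out in turn it was below 0.05 in 2 of 20 fits and reached 0.16 (limma).

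**Figure D4:**
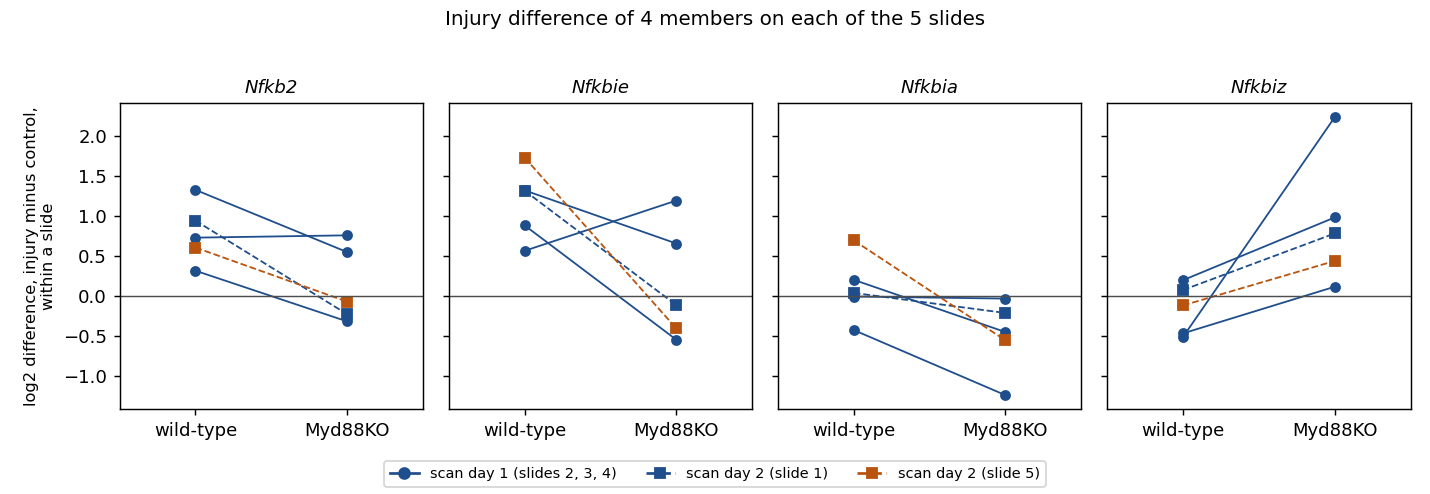
Injury minus control (log2 difference) within each of the 5 slides in wild-type and Myd88KO tracheas for Nfkb2, Nfkbie, Nfkbia and Nfkbiz; each line joins the 2 differences of a slide, circles are slides of the first scan day, squares those of the second, and slide 5 is in another colour. For Nfkbiz the Myd88KO difference is the higher one on 5 of 5 slides, by 0.56 to 2.75.

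Both Rela probes followed the scan day. The dimmer, Rela probe 2, spotted 10 times, read -2.73 to -1.75 on the 8 arrays of the second day and -1.91 to -0.67 on the 12 arrays of the first. With group means taken into account the second day was lower by a difference of -1.04 ± 0.16 (limma adjusted p = 0.00011), larger than any difference between groups of this probe, and Rela probe 1 was lower by a difference of -0.43 ± 0.11 (adjusted p = 0.0063). These were 2 of 13 member probes called for the scan day, beside 21.1% of all probes. The sign for Nfkbia was the opposite, at 0.29 ± 0.13 (adjusted p = 0.089). Since every group had 3 arrays on the first day and 2 on the second, a shift common to the 4 groups cancels in the differences between them.

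**Figure D5:**
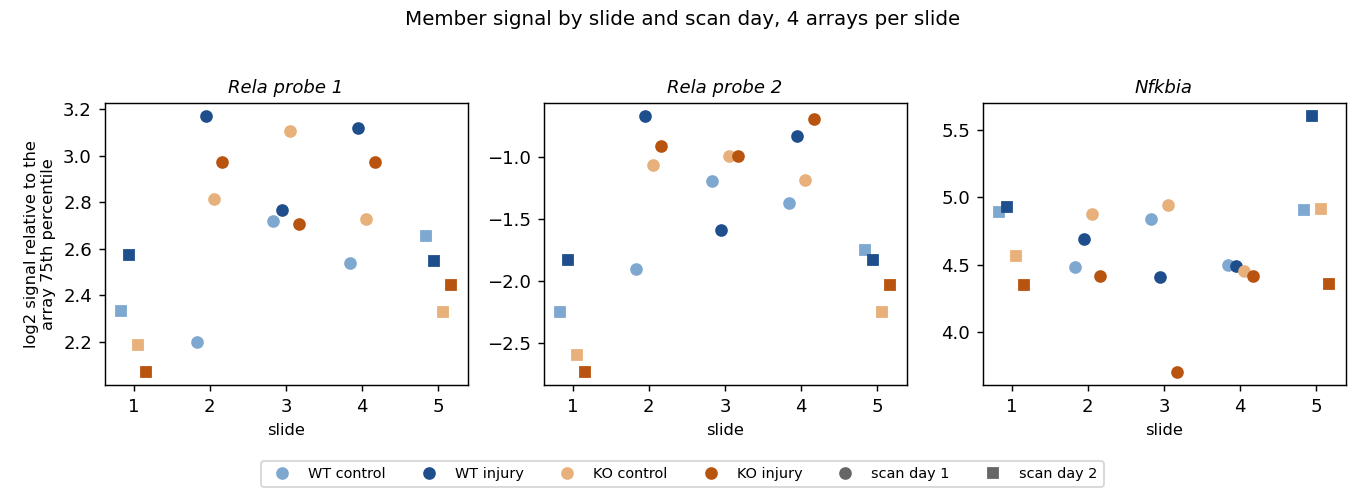
Log2 signal relative to the array's 75th percentile by slide for the Rela probes and Nfkbia; colours are the 4 groups, circles the first scan day (slides 2, 3 and 4) and squares the second (slides 1 and 5). Rela probe 2 is below -1.75 on all 8 arrays of slides 1 and 5.

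Covariation between members was examined within groups over the 20 arrays, after subtraction of each group's mean, for 5 pairs chosen for their known partnership. The permutation tests set each r against no relation. No share of all probe pairs with such an r is given, so that no r is shown to be particular to its pair. Nfkbia and Tnfaip3, both feedback inhibitors, had a Pearson r of 0.74 (permutation p = 0.00081, adjusted over the 5 pairs 0.0040) and a Spearman rho of 0.77 (permutation p = 0.00028, adjusted 0.0014). Since arrays of 1 slide deviated together, the test was repeated over all 120 orders of the 5 slides, and gave an exact permutation p of 0.0083 for r and for rho, the smallest these orders allow (adjusted 0.042). With group and slide means removed r was 0.81. Without the 2 arrays farthest from the median of Nfkbia r was 0.62, and with scan-day means also removed it was 0.79 (permutation p = 0.0025, adjusted 0.010). Nfkb2 and Relb, whose products form the non-canonical dimer, had r of 0.64 (permutation p = 0.024, adjusted 0.060) and rho of 0.63 (permutation p = 0.019, adjusted 0.047). Over the orders of slides the exact permutation p was 0.017 for both (adjusted 0.042), and with slide means removed r was 0.89. Without the 2 arrays farthest from the median of Nfkb2 r was 0.56, and with scan-day means removed r over all arrays was 0.84 (permutation p = 0.011, adjusted 0.019).
Rela and Nfkbia had r of -0.09 and rho of 0.22 (permutation p = 0.72 and 0.39, adjusted 0.72 and 0.48), but r of 0.54 and rho of 0.58 with scan-day means removed (permutation p = 0.0041 and 0.0010, adjusted 0.010 and 0.0039; r of 0.54 without the 2 farthest arrays), so that the relation was seen within days and not across them. Over the orders of slides, with only group means removed, the exact permutation p of this pair was 0.80 for r and 0.32 for rho (adjusted 0.80 and 0.40). These belong to the r of -0.09 and rho of 0.22 and do not test the relation within days. With slide means removed r was 0.40. Nfkb1 and Rela had r of 0.11 and rho of 0.14 (permutation p = 0.67 and 0.58, adjusted 0.72 and 0.58), and Nfkbia and Nfkbiz had r of -0.29 and rho of -0.30 (permutation p = 0.24 for both, adjusted 0.40 for both), and with scan-day means removed their r was -0.14 and -0.35, or 0.62 and -0.33 with slide means removed. Over the orders of slides the exact permutation p for r was 0.77 and 0.28 (adjusted 0.80 and 0.47). Without injured Myd88KO replicate 5 the r of Nfkbia with Tnfaip3 was 0.75 and that of Nfkb2 with Relb 0.63. The pair of Rel with Nfkbie was left out because Rel was below background.

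The genes whose values were most like those of a member over the 20 arrays, group differences included, are given as a description. For Nfkbie these were Wipf1 (Pearson r = 0.96), Apbb1ip (0.95) and Zmynd15 (0.95). Wipf1 binds the Wiskott-Aldrich syndrome protein and Apbb1ip is an adaptor of integrin activation. After wild-type injury Apbb1ip was 1.73 ± 0.37 higher (limma adjusted p = 0.0049), Wipf1 0.77 ± 0.20 (adjusted p = 0.016) and Zmynd15 0.90 ± 0.29 (adjusted p = 0.049). For Nfkb2 they were Esyt1 (0.96), Lmf2 (0.96) and Nek6 (0.95), and for Rela probe 1 they were Vars (0.97), Nacc1 (0.96) and B4galnt1 (0.95). The points share arrays, slides and scan days, and Vars and Nacc1 differed between scan days (adjusted p = 0.00035 and 0.0099).

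The rest of the pathway was read from 3 lists of 64 genes. Of the IkB kinases and upstream adaptors, 19 of 20 genes were tested. After wild-type injury 0 were called higher and 1 lower, beside 5.26% of all probes. The gene called lower was Ikbkg, the regulatory subunit of the kinase, by 1 of its probes (-1.1 ± 0.21, limma adjusted p = 0.0024). Its other tested probes were not called, at -0.0048 ± 0.20 (adjusted p = 0.99) and -0.57 ± 0.29 (adjusted p = 0.22). No gene of that list was called in the other 4 comparisons. At an unadjusted p under 0.05 the Myd88KO injury comparison had 4 of 30 probes, beside 19.5% of all probes. The uninjured genotypes had 0 of 30, beside 5.59%. The median probe difference of the list was 0.08 after wild-type injury, beside 0.0001 for all probes. Of other NF-kB inhibitors and modulators, 13 of 15 genes were tested, and 1 was called, the ubiquitin ligase Itch, lower in injured Myd88KO than in injured wild-type tracheas by 1 of its probes (-2.30 ± 0.37, limma adjusted p = 0.0022; well above background on 2 of 5 injured Myd88KO arrays). The other tested Itch probe had the opposite sign, 0.57 ± 0.15 (adjusted p = 0.11), so that no direction is given for the gene. The median of the list was 0.0014, beside -0.034 for all probes, of which 0.380% were called. Without injured Myd88KO replicate 5, the first Itch probe was also called lower between the uninjured genotypes, where the other probe again had the opposite sign (0.42 ± 0.15 over all arrays, limma adjusted p = 0.53), and Tnip1 was called higher and Nkiras1 lower after wild-type injury.

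Genes that NF-kB is known to induce were called in both directions after wild-type injury. Of 29 such target genes 22 were tested. After wild-type injury 5 were called higher and 1 lower, beside 5.26% of all probes, with a median probe difference of 0.63 (6 higher, with Il1b, without injured Myd88KO replicate 5). The 3 largest rises among the called genes were Saa3, an acute-phase protein (7.58 ± 1.1, limma adjusted p = 0.00041; well above background on 3 of 5 uninjured arrays), Lcn2, an iron-binding antimicrobial protein (3.62 ± 0.67, adjusted p = 0.0021), and Ccl2, a chemokine for monocytes (3.32 ± 0.49, adjusted p = 0.00048). The fall was in Ccl20, an epithelial chemokine (-3.55 ± 0.58, adjusted p = 0.00091; well above background on 2 of 5 injured arrays). After Myd88KO injury 0 of the 22 were called in either direction, beside 0.376% of all probes, with a median of 0.009. Without replicate 5, 1 was called higher (Saa3) and 1 lower (Ccl20), beside 4.12% of all probes. Lcn2 was lower in injured Myd88KO than in injured wild-type tracheas (-3.95 ± 0.67, adjusted p = 0.0038; well above background on 3 of 5 injured Myd88KO arrays), a call that was lost without replicate 5 of the injured Myd88KO group, and the median of the list was -0.52 in that comparison. The difference between the responses gave 0 called target genes, and 11 of 29 probes at an unadjusted p under 0.05, beside 10.4% of all probes. The target list was written with earlier results of these data known, and its counts are a description beside those of all probes.

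Among markers of the cell types of the trachea, those of secretory and of dividing cells were called after injury. Of 5 secretory genes 3 were called lower after wild-type injury and 2 after Myd88KO injury, or 3 without replicate 5. Of 6 proliferation genes 5 were called higher after wild-type and 1 after Myd88KO injury, or 6 without replicate 5. Beside these counts, 5.26% of all probes were called for wild-type injury and 0.376% for Myd88KO injury, or 4.12% without replicate 5. No gene of the basal, ciliated, endothelial, cartilage, smooth muscle, lymphoid, thyroid, skeletal muscle and adipocyte lists was called in any comparison, with or without that array. Of the defining markers, Cd79a and Ms4a1 of B cells were well above background on 2 and 9 of 20 arrays, and Slc5a5 of the thyroid on 7. The part of these cell types in the member values was not tested.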

How the data were processed

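The authors extracted total RNA from whole tracheas, labelled it with a single dye (Cy3) and hybridized it to Agilent whole mouse genome oligonucleotide arrays. The deposited files hold the output of Agilent Feature Extraction 9.5.1.1, per the file headers: a background-subtracted intensity per spot, not scaled between arrays. The deposited value table holds the same intensities (ratio to the scanner values 0.995 to 1.00). The genome build of the probe coordinates is not given in the sources used here.

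Spots marked as outliers (1960) were left out, log2 intensities of a probe's spots were averaged, and the 75th percentile of each array was subtracted. Probes that the scanner software marked as well above background on 10 or more of the 20 arrays (26063 of 41174) were tested with limma 3.58.1 in R (version 4.3.3) on all 20 arrays with Benjamini-Hochberg adjustment, and called at an adjusted p under 0.01. The study's methods give that threshold and filter and a one-way test, which was run as an alternative. Samples were grouped by title. Precision is limited by having 5 arrays in a group. The fit was also run on simulated data, and the outcome of that run is not given here.

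Replicate numbers coincide with slides, per the file headers. Deviations from group means had a median correlation of 0.24 over 30 pairs of arrays of 1 slide and of -0.08 over 120 pairs from different slides, and 23 of the 30 were over 0.1. Covariation used 100000 permutations within groups, two-sided, for 5 of the 6 pairs set out, since Rel was not measurable. Named genes were all member probes, Myd88, the 3 largest called rises and falls of each pathway list, and the 3 genes most like each of the 3 members with the lowest p after wild-type injury. Members, lists and tests were chosen with earlier results of these data known. Alternatives covered background correction, scaling, filters, outlier spots, the value table, blocks, array weights, the arrays in the fit, the test, the threshold, the mean of a gene's probes, and each array left out. Analyses without injured Myd88KO replicate 5 for the lists, and, for the covariation, with scan-day or slide means removed or slides exchanged, were chosen after seeing the data. Gene names are those of the array files, and promoter windows came from RefSeq (GRCm38.p6).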

Additional observations from a re-analysis of the deposited data

Results flagged for a closer look

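Of 56 sets of 5 arrays (14 probes in 4 groups), 4 had an array far from the rest, with a gap to its neighbour of over 0.71 of the range; by chance about 1 in 20 such sets would. Nfkbia in injured Myd88KO replicate 3 was at 3.70, below 4.35 to 4.42 on the other 4 arrays. Without that array the Myd88KO injury difference of Nfkbia was -0.36. Tnfaip3 in uninjured Myd88KO replicate 1 was at -0.088, below 0.22 to 0.32 on the others. Rel in uninjured wild-type replicate 2 was at -2.70, the array on which alone it was well above background, with the others at or below -6.48. Rel in injured wild-type replicate 1 was at -5.73 and not well above background, with the others at or below -7.09. The causes were not tested.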

How the results depend on the processing

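Of the 172 counts of called member probes under 35 alternatives (20 of them each leaving out 1 array, which gave 0 to 0 in all 5 comparisons), 169 were 0. The other 3 were for wild-type injury: 2 probes at an adjusted p under 0.05 (beside 12.7% of all probes), 1 (Nfkb2) with only the 10 arrays compared (6.06%), and 2 (Nfkb2 and Nfkbie) with the methods' test on those groups without adjustment (14.6%). With the replicate block the counts were 0 in all 5 comparisons. Of 1032 differences of the 6 genes with an unadjusted p under 0.05 in any comparison, 1017 kept their sign. Part of these could not change sign. Leaving out an array of a group not compared returns the same difference, as do settings that change only the threshold, the test or the block. The Nfkbia difference between uninjured genotypes turned to -0.020 with quantile normalization and to -0.021 with the 75th percentile over probes well above background on all 20 arrays. Leaving out 1 array at a time, its range was -0.034 to 0.0996, that of Relb between uninjured genotypes -0.071 to 0.029, that of Nfkbia after wild-type injury -0.094 to 0.20, and after Myd88KO injury those of Nfkb2 and Nfkbie -0.035 to 0.34 and -0.082 to 0.35; the causes were not tested. At the threshold of 0.05, Nfkbie after wild-type injury was lost without uninjured wild-type replicate 2 or injured wild-type replicate 1 or 5 (adjusted p = 0.062 to 0.067), and with the methods' test after adjustment (0.067). Nfkb2 was lost without any of 9 wild-type arrays, all but injured replicate 3 (0.055 to 0.098), and with normexp (0.071), quantile normalization (0.052), the second percentile (0.065) or no filter (0.064). Rel was not well above background on 19 of 20 arrays, so its level could not be compared.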
